A study of Rattus norvegicus with 3 samples.

Results

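The myosin light chains of striated muscle and the kinases that act on them were followed in rat soleus, a calf muscle made mostly of slow fibres that helps to hold posture. The set held 8 listed genes, the light chains Myl1, Myl2, Myl3, Myl4, Myl6b and Myl11 (also called Mylpf) and the kinases Mylk2 and Mylk4, and a gene was measured where a probe set carried its symbol and no other. By that rule 5 of the 8 were measured, namely Myl1, Myl2, Myl3, Myl11 and Mylk2, out of 14506 genes in all. Myl6b shares its probe set with other symbols and was left out, and Myl4, the embryonic and atrial light chain, and Mylk4 are not analysed here, so no value stands for the embryonic form.

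Rats of a strain labelled Brown, aged 7 weeks at housing, formed 3 groups of 6. Every group, the controls included, was irradiated continuously over 2 weeks to an absorbed dose of 50 mSv in total. Group Ct received nothing else, the muscle of group DN lost its nerve as well, and rats of group TS hung by the tail, which takes the load off the hind limbs. RNA of the soleus muscles of a group was pooled and put on 1 Affymetrix Rat Gene 1.0 ST array, so a value stands for a pool of 6 rats, the spread between rats is not known, no test between groups was possible, and every difference describes these 3 pools. No unirradiated muscle is among the samples, so all comparisons are between irradiated muscles.

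Each myosin head binds a pair of light chains around its lever arm. The essential light chain stiffens the lever arm, and the regulatory light chain can be phosphorylated by a calmodulin-dependent kinase, which in fast skeletal muscle raises the force of a submaximal contraction. Slow fibres use Myl3 as the essential and Myl2 as the regulatory chain, both shared with the ventricle of the heart, whereas fast fibres use Myl1 and Myl11 in these places. Mylk2 encodes the skeletal muscle light chain kinase, and myosin phosphatase, built from a catalytic and a targeting subunit, removes the phosphate.

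The deposited values are on a log2 scale, so a difference of 1 unit is a 2-fold difference, and a gene was counted as higher or lower when it differed by at least 1.5-fold, that is 0.58 (log2). All 5 measured genes passed the limit on dim genes (a mean over the arrays of at least 5.72) and stood above it on every array. In DN against Ct, 1 of the 5 was higher and 3 were lower, where 4.93% of the 10154 genes compared were higher and 5.53% lower. In TS against Ct, 1 of the 5 was higher and 1 lower, where 5.89% of all genes were higher and 2.68% lower. The median difference of the 5 genes was -1.13 in DN and -0.10 in TS, against medians over all genes of 0.00 and 0.02. The labelled tissue was checked against its markers. Acta1, the skeletal actin, gave the highest value of the Ct array (13.99), and the slow heavy chain Myh7 read 13.62 there.

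**Figure D1:**
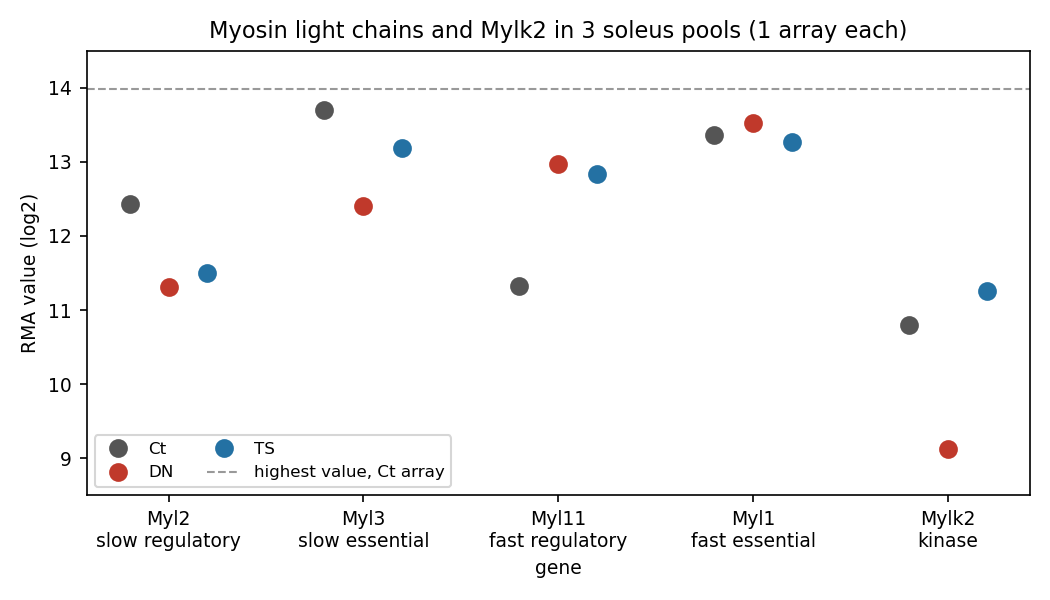
Deposited expression value (log2, vertical axis) of the 4 light chains and the kinase Mylk2 on the Ct, DN and TS arrays; each point is 1 array of pooled RNA, so there are no error bars, and the dashed line is the highest value of the Ct array. Both slow chains are highest in Ct, Myl11 is lowest in Ct, the Myl1 points lie close together near the top of the scale, and Mylk2 is lowest in DN.

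Of the 5 genes, Myl11, the fast regulatory light chain, stood furthest above Ct in both treated pools. It read 11.33 in Ct, 12.98 in DN and 12.84 in TS, so the Ct pool was low and the other pools were both high. The difference from Ct was 1.65, or 3.13-fold, in DN and 1.51, or 2.85-fold, in TS. Of all genes compared, 87 were further above Ct than Myl11 in DN and 38 in TS. DN and TS differed from each other by 0.13, short of 1.5-fold.

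Myl1, the fast essential light chain, did not share that difference. It read 13.36 in Ct, 13.52 in DN and 13.26 in TS, so its pools lay close together. The differences from Ct were 0.16 in DN and -0.10 in TS, and the latter turned to 0.03 when a trend on expression was removed. Myl1 lay near the top of the scale, with 49 probe sets brighter on the Ct array, and differences at that level can be compressed. The gain of Myl11 over Myl1 was 1.49 in DN and 1.61 in TS (a difference between their differences from Ct).

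Myl2, the slow regulatory light chain, was lower in both treated pools. It read 12.44 in Ct, 11.31 in DN and 11.50 in TS, with the Ct pool high and the others lower by similar amounts. The differences were -1.13 in DN, a 2.19-fold lower value, and -0.94 in TS, a 1.91-fold lower value. In TS 83 genes were further below Ct. DN minus TS was -0.19, short of 1.5-fold.

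Myl3, the slow essential light chain, separated the treatments more. It read 13.70 in Ct, where 2 probe sets were brighter, 12.40 in DN and 13.19 in TS, so TS lay between the others. The difference from Ct was -1.30, or 2.47-fold, in DN, and -0.51, or 1.43-fold, in TS. The TS value missed 1.5-fold as deposited and passed it, at -0.65, when each array was centred on its median over the genes compared. DN minus TS was -0.79, so DN was 1.73-fold lower. The Ct reading was close to the highest value of the array, so the differences of Myl3 may be understated.

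The regulatory pair and the essential pair can be set side by side within the arrays, since a shift of a whole array leaves a difference between differences as it is. Myl11 gained on Myl2 by 2.78 (log2) in DN, or 6.85-fold, and by 2.45 in TS, or 5.46-fold. Myl1 gained on Myl3 by 1.46 in DN, or 2.75-fold, and by 0.41 in TS, or 1.33-fold. The regulatory pair thus gained more than the essential pair, by 1.32 in DN and 2.04 in TS, although Myl1 and Myl3 lie where differences can be compressed. Over both fast and both slow chains measured, the mean of the fast minus the mean of the slow differences was 2.12 in DN and 1.43 in TS. These values show unequal differences between genes and do not give the amount of protein. DN and TS share the Ct array, so their agreement in direction is not a replication.

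The upstream sequences of Myl11 and Myl3 are shown because these genes lay on opposite sides of Ct in DN, and those of Myl1 because the gene has 2 starts that 1 probe set joins. As background, the upstream start of Myl1 gives the longer essential chain, MLC1f, and the start inside the gene gives the shorter MLC3f, and the array value does not tell them apart. The 250 bases before each start are from a table of RefSeq sequences (build GRCr8), in which 5 of the 8 genes were matched, and are written 5′ to 3′ along the gene's strand, with capitals for every match of a motif searched.
Myl11, chr1:191260039-191260288, plus strand: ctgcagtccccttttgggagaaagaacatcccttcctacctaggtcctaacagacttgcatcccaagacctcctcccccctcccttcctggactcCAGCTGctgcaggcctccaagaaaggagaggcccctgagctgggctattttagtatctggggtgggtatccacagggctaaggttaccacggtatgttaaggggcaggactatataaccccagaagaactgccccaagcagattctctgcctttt
Myl3, chr8:119616844-119617093, plus strand: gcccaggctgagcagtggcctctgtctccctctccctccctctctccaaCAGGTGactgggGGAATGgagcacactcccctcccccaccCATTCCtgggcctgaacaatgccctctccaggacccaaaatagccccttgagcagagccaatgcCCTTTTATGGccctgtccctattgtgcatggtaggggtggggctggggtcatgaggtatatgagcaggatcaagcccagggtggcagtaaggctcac
Myl1 upstream start, chr9:75907697-75907946, minus strand: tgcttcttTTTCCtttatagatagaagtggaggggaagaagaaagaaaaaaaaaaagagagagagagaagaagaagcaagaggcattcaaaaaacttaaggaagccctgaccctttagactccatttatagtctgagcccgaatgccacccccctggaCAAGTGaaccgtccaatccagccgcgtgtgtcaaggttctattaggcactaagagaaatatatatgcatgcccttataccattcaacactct
Myl1 downstream start, chr9:75897800-75898049, minus strand: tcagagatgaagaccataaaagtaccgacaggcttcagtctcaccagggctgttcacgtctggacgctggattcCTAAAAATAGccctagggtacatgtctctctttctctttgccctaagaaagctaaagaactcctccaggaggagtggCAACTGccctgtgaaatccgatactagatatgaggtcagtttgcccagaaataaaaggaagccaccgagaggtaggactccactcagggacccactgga

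The motifs were the E-box (CANNTG), bound by myogenic factors, the MEF2 site, the CArG box of serum response factor, MCAT (CATTCC), a site of TEAD factors, and the NFAT core (GGAAA), each on both strands. The single match before Myl11 was an E-box, CAGCTG, 155 to 150 bases before the start. Myl3 held 4 matches, an E-box at 201 to 196, MCAT matches at 189 to 184 and 161 to 156, and a CArG box, CCTTTTATGG, at 97 to 88. Before the upstream start of Myl1 lay an E-box at 92 to 87 and an NFAT core at 242 to 238, and before the downstream start an E-box at 99 to 94 and a MEF2 site, CTAAAAATAG, at 176 to 167. The Myl1 starts are 9897 bases apart. Of 33469 windows of this length in the table, 65.5% held an E-box, 56.9% an NFAT core, 12.1% MCAT, 2.96% a MEF2 site and 1.5% a CArG box. A match describes the letters of the window and was not tested for use in this muscle.

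Mylk2, the skeletal light chain kinase, took opposite sides in the treatments. It read 10.79 in Ct, 9.13 in DN and 11.25 in TS, so the DN pool was low and TS was slightly above Ct. The difference from Ct was -1.67 in DN, or 3.17-fold lower, and 61 of all genes lay further below Ct. In TS it was 0.46 above Ct, or 1.38-fold, short of the limit. DN minus TS was -2.13, a 4.36-fold lower value in DN, and 24 genes lay lower in that comparison. There, 2 of the 5 genes, Mylk2 and Myl3, were lower and none was higher, where 3.2% of all genes were higher and 5.93% lower. In DN, Mylk2 and its substrate Myl11 lay on opposite sides of Ct, and the Mylk2 difference minus the Myl11 difference was -3.31. In TS both lay above Ct, and the same quantity was -1.05.

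**Figure D2:**
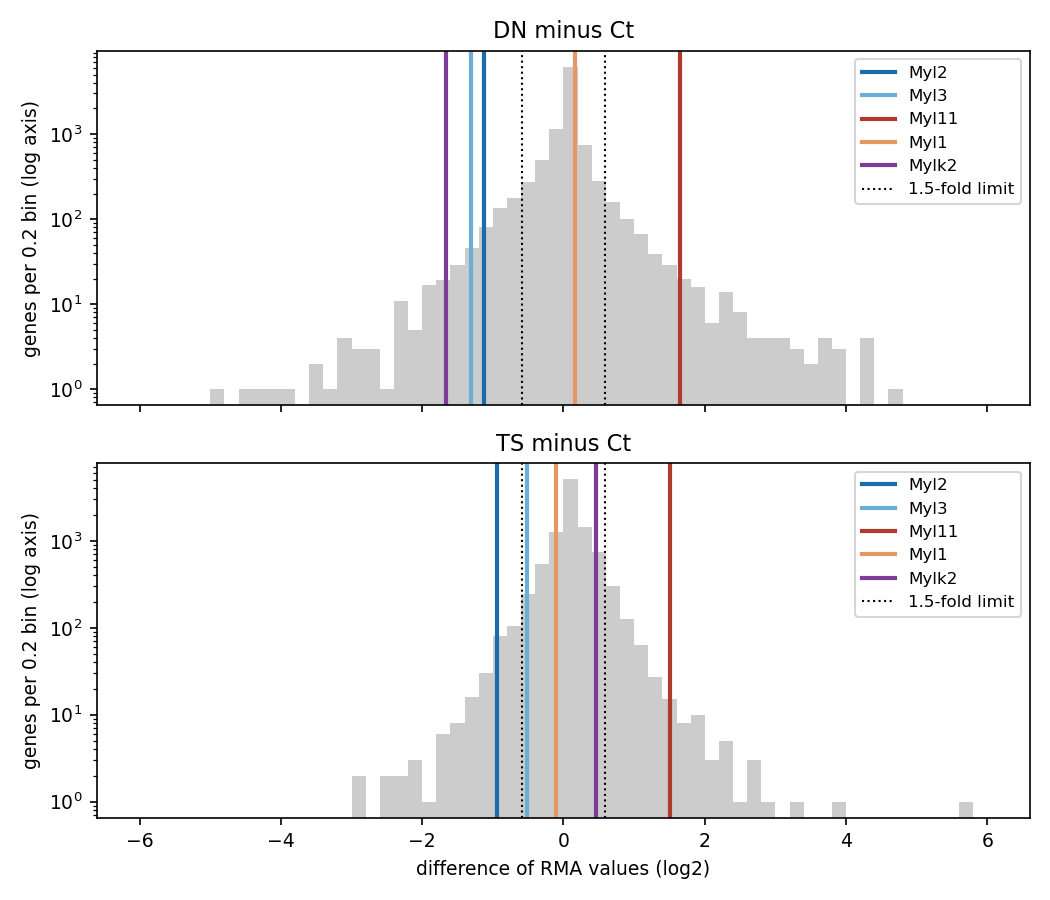
Number of genes (vertical log axis) at each difference from Ct (log2, horizontal axis) for DN in the upper and TS in the lower panel, over 10154 genes, with a coloured line for each measured light chain and Mylk2 and dotted lines at 1.5-fold. In DN the lines of Mylk2 (-1.67), Myl3 (-1.30) and Myl2 (-1.13) lie left of the limit and Myl11 (1.65) right of it, while in TS only Myl2 and Myl11 are past it.

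Other light chains and kinases are those of smooth muscle, non-muscle cells and heart. Their list also held Mylip, which is neither a light chain nor a kinase. Of 11 listed, 7 were measured and compared, and 1 was lower in DN and 1 higher in TS, both times Mylk3, the cardiac light chain kinase. Over all genes, 5.53% were lower in DN and 5.89% higher in TS. Mylk3 read 5.92 in Ct, 5.24 in DN and 6.81 in TS. It was dim, with the DN value under the limit on dim genes, and its DN difference of -0.68 fell short of 1.5-fold (-0.41) with 32 added on the linear scale. Its TS difference was 0.89. The atrial regulatory chain Myl7 read 6.51 on all 3 arrays, and the smooth muscle kinase Mylk read 7.32 on all 3. The non-muscle regulatory chain Myl12a read 11.35, 11.35 and 11.34 in Ct, DN and TS. The deposited values can be exactly equal on a pair of arrays, which held for 42.9% of genes in Ct and DN and 24.7% in Ct and TS, so equal values are no evidence of an equal level.

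Among the genes that oppose or assist the kinase, the phosphatase inhibitor Ppp1r14c differed most. Of 13 genes of myosin phosphatase, its regulators and calmodulin, 11 were compared. In DN 2 were higher and none lower, where 4.93% of all genes were higher and 5.53% lower. In TS 1 was higher and none lower, where 5.89% of all genes were higher and 2.68% lower. The catalytic subunit Ppp1cb read 12.27 in Ct, 12.27 in DN and 12.24 in TS. The targeting subunit of striated muscle, Ppp1r12b, read 10.10, 9.92 and 10.22 in the same order. Ppp1r14c read 5.55 in Ct, 9.38 in DN and 5.46 in TS, so it was high in DN alone. It was dim in Ct and TS, below the limit, and it passed through its DN value, so the size of its difference from Ct is uncertain, at 3.82 as deposited and 3.14 under the lowest of the alternative settings. Ppp1r14b, of the same inhibitor family, was higher by 0.63 in DN and by 0.82 in TS. Under the lowest of the alternative settings these were 0.43, short of 1.5-fold, and 0.62. The calmodulin gene Calm2 differed from Ct by 0.06 in DN and 0.50 in TS.

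**Figure D3:**
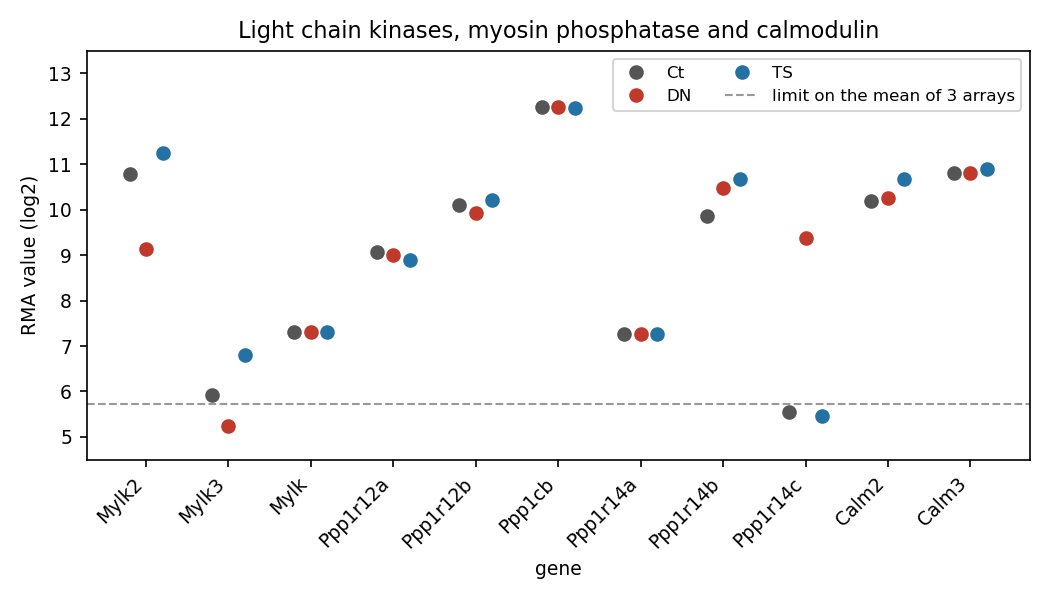
Deposited expression value (log2, vertical axis) of light chain kinases, myosin phosphatase subunits and inhibitors, and calmodulin genes on the Ct, DN and TS arrays, 1 point per array; the dashed line is the limit on the mean of the arrays (5.72). Mylk2 is lowest in DN (9.13), Ppp1r14c is high in DN (9.38) and below the line in Ct and TS, and Ppp1cb stays near 12.27.

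The heavy chains that carry these light chains gave a wider range. Of 8 sarcomeric heavy chains, 7 were compared, and 3 were higher and 1 lower in DN, and 4 higher and 1 lower in TS. The shares over all genes were 4.93% higher and 5.53% lower in DN, and 5.89% and 2.68% in TS. The fast chain Myh1 was higher by 3.73 in DN and 3.94 in TS, and the embryonic chain Myh3 by 2.25 and 2.44. Myh4, the fastest chain, was higher by 2.02 in DN and 5.72 in TS. It read only 6.46 in Ct, so the sizes of these differences are uncertain. Under the lowest of the alternative settings they were 1.70 and 5.29. DN minus TS was -3.71 for Myh4 and 0.13 for Myl11. Myh2, the fast oxidative chain, was higher by 0.36 in DN and 0.84 in TS. Of the slow chains, Myh7 differed by -0.56 in DN and -0.38 in TS, smaller than those of its partner Myl2 in each but read near the top of the scale, and Myh7b by -1.32 and -1.69. Myh6, the cardiac alpha chain, differed by -0.47 and -0.19. Myosin genes are close relatives, so their probe sets may share signal.

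Thin-filament genes split by fibre form as well. All 4 fast troponin and tropomyosin genes listed (Tnni2, Tnnt3, Tnnc2, Tpm1) were higher in DN, by 1.20 to 1.58, and in TS, by 1.03 to 2.91. Myl11 lay just above that range in DN and within it in TS, and Myl1 below it in both. Of 4 slow genes, Tpm3 alone was lower in DN (-0.70), none was past 1.5-fold in TS, and the slow medians were -0.26 and -0.19. Among all genes, 4.93% were higher and 5.53% lower in DN, and 5.89% higher and 2.68% lower in TS. The slow light chain medians were -1.22 in DN and -0.72 in TS. Tnni1 (13.49), Tnnc1 (13.46) and Tnnt1 (13.16) also read near the top of the scale in Ct, so their differences may be compressed.

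Genes that bind or fold myosin were also set beside the light chains. Of 8 listed, 7 were compared, with 1 higher and 1 lower in DN, and 2 higher in TS. Shares over all genes were 4.93% higher and 5.53% lower in DN, and 5.89% higher in TS. Mybph, a myosin-binding protein of the thick filament, was higher by 1.83 in DN and 2.66 in TS. Mybpc2, the fast myosin-binding protein C, read 5.49 in Ct, 6.01 in DN and 7.46 in TS, so it was dim in Ct, below the limit. Its TS difference was 1.97 as deposited and 1.44 under the lowest of the alternative settings. Smyd1, a methyltransferase needed for thick filament assembly, was lower in DN (-0.59), at the limit. Its DN difference fell just inside the limit (-0.58) under an alternative setting. The chaperone Unc45b read 10.23 in Ct and DN and 10.28 in TS.

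**Figure D4:**
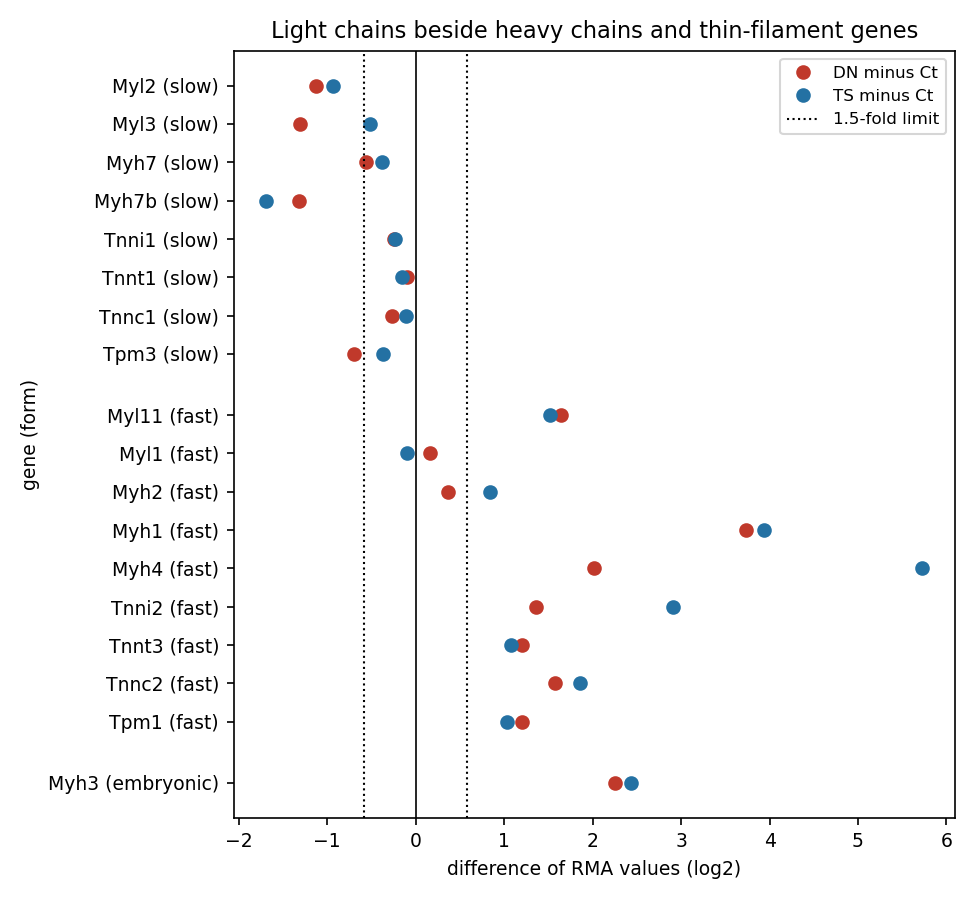
Difference from Ct (log2, horizontal axis) of slow, fast and embryonic forms of light chains, heavy chains, troponins and tropomyosins, with DN in red and TS in blue, 1 pool each, and dotted lines at 1.5-fold. Myl2 and Myl3 lie further left than the slow troponins, Myl11 lies with the fast troponins, and Myl1 stays within the limit on both sides.

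By the distance between the DN and TS differences of each gene (Euclidean, log2, over 2 comparisons that share Ct), the genes nearest to a member were listed as a description. Nearest to Mylk2 (distance 0.06) were Cav3, the muscle caveolin, at -1.72 in DN and 0.45 in TS, and Ramp1, a receptor accessory protein, at -1.61 and 0.46. Next came Clcn1, the muscle chloride channel, at -1.72 and 0.37. Outside the symbols passed over, Mylk2 had 4 genes within a distance of 0.25 and Myl11 had 3, against 38 for Myl2 and 45 for Myl3. In DN, 1.43% of genes differed more from Ct than Mylk2 and 1.48% more than Myl11, against 3.42% for Myl2 and 2.6% for Myl3. Genes are sparser at large differences, so these counts were not read as a trait of a gene. Nearest to Myl11 were Cdk5r1 (1.5 in DN and 1.59 in TS), Lox, a collagen crosslinking enzyme (1.47 in both), and the myogenic factor Myog (1.86 and 1.42). Nearest to Myl2 were G0s2, a lipase inhibitor, the small heat shock protein Hspb3 and Cox7b of complex IV, and nearest to Myl3 were Adamtsl4, Phtf2 and Eps8l2.

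Markers of other cells moved between the pools too, and their part in the light chain values was not tested. In bulk muscle, fewer fibres of a type and less RNA per fibre cannot be told apart. The marker counts stand beside shares over all genes of 4.93% higher and 5.53% lower in DN, and 5.89% and 2.68% in TS. The 9 smooth muscle and pericyte markers had a mean level of 9.25 in Ct, 8.82 in DN and 9.22 in TS, and 3 of them were lower in DN, of which Tagln (-0.60) lay at the limit and fell inside it, at -0.58, under an alternative setting. The 5 adipocyte markers had a mean of 7.15, 8.25 and 8.15, with 3 higher in each treated pool, and the 5 macrophage markers 8.68, 9.01 and 9.41, with 3 higher in TS, of which Adgre1 (0.60) fell short of 1.5-fold, at 0.47, when arrays were centred over the genes compared. Of the 7 skeletal muscle markers, Ckm, the muscle creatine kinase, was lower in DN (-1.12), and the others were within 1.5-fold in both comparisons. Of 4 endothelial markers compared, 1 (Kdr) was lower in both treated pools, and of 3 satellite cell markers 1 (Myf5) was higher in both. Of 5 fibroblast markers 1 (Pdgfra) was higher in TS, and of 3 Schwann cell markers none was past 1.5-fold. Of 6 cardiac markers 4 were compared, and 1 was higher in DN, namely Sln, a calcium pump regulator also made in slow muscle, which read 12.13 in Ct, 13.32 in DN and 12.71 in TS. Myh6 read 7.84 in Ct, Myl7 6.51 and Tnni3 6.04, and Nppa and Nppb lay below the limit on dim genes.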

How the data were processed

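Each of the 3 groups gave 1 RNA pool of 6 rats and 1 array; the series text names 2 arrays, and 3 with values were used. Per the submitters' processing notes and the labels, the authors made the values with RMA in Affymetrix Expression Console (core-exon analysis), and the deposited values were read as log2; the base and the tool's version were not given in the sources used here. RMA's median polish can return equal values on several arrays. Symbols came from the platform annotation (15310 of 29170 probe sets with 1 symbol), each gene being represented by its brightest probe set; each measured member had 1. Genes were compared where their mean reached the 30th percentile (5.72). With 1 array per group no p-value was computed, and the number of arrays limits the precision.

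The members and gene lists were chosen with earlier results of these data known. Named genes were the members, list members past 1.5-fold against Ct, all measured heavy chains, and the 3 genes nearest to each member past 1.5-fold. For the nearest genes and their counts, symbols that begin with LOC, RGD, Olr, Vom, Mir, Snor, Rn or Tas were passed over. These prefixes cover uncharacterised loci, receptors of smell and small RNAs, and also any characterised gene whose symbol begins so. Genes named though within 1.5-fold of Ct (Myl7, Mylk, Myl12a, Ppp1cb, Ppp1r12b, Calm2, Unc45b), the slow troponins, Acta1 and the cell type markers were named after their values were seen. The slow mean rests on Myl2 and Myl3. The counting was tested on simulated data, with small noise and shifts well past the limit in bright genes. That test checks the code and does not cover dim genes or differences near the limit. Alternatives were 3 scalings, 32 added on the linear scale, the mean of probe sets, other limits and filters, and, added after seeing the data, centring over the genes compared and a background without equal values. Python 3.11.15, numpy 2.4.6, pandas 2.3.3, statsmodels 0.14.6 and matplotlib 3.10.9 were used.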

Additional observations from a re-analysis of the deposited data

How the results depend on the processing

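Of 141 values recomputed for 21 results, 134 kept their direction and, for a difference, its side of 1.5-fold, or, for a count of members, stayed within 1.5 times the reported count. Part of these values could not change. Each measured member had 1 probe set, so the mean of probe sets returned the same values. Centring an array leaves the fast minus slow value as it is. All measured members stood above the limit on dim genes, so the other filters left their counts alone. The 134 therefore overstate how far the results were tried. The fast minus slow value ranged from 2.10 to 2.12 in DN and from 1.42 to 1.47 in TS. With a 3-fold limit the count of members past it was 2 in DN (Myl11 and Mylk2), 0 in TS and 1 in DN against TS, where 1.63%, 0.532% and 1% of all genes were past it. With a 2-fold limit it was 1 in TS and 1 in DN against TS, where 2.06% and 2.94% of all genes were past it. The TS difference of Myl1 was 0.030 with a loess trend removed, and that of Myl3 was -0.65 with arrays centred over the genes compared, which made the count in TS 3. That centring, added after seeing the data, moved the median TS minus Ct difference over all genes from 0.02 to -0.12 and the share of called genes that were higher from 68.7% to 47.2%; in DN against TS the share went from 35.1% to 55.2%. Without genes of equal values, 18.3% of genes were past 1.5-fold in DN and 11.4% in TS. No paired analysis was possible because each group has 1 pooled array. Signal near the top of the scale limits Myl1, Myl3, Myh7 and the slow troponins. Low signal limits Mylk3, Ppp1r14c and Mybpc2, and in Ct also Myh4.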
